A study of Danio rerio with 19 samples.

Results

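The microRNAs (miRNAs) of normal zebrafish larvae were compared between 7 and 3 days post fertilization (dpf). The levels were those of the control RNA on arrays that had been made to compare kita:HRAS transgenic larvae with their controls. The control RNA came from larvae of the AB wild type strain and carried the dye Hy5 of the red channel. The transgenic RNA came from larvae in which the kita promoter drives a constitutively active, oncogenic form of human HRAS in pigment cells. It carried Hy3, the dye of the green channel, and the dyes were not swapped on any array. Each sample was the total RNA of a pool of 15 whole larvae (5 in the 14 dpf controls, used at some points below), and replicate pools had different parents. The comparison used 3 arrays at 7 dpf and 2 arrays at 3 dpf that lay on the same slide, and was then repeated with the other 2 control arrays of kita:HRAS at 3 dpf, which lay on another slide. The arrays held 546 probes for known miRNAs, each against 22 bases of the left (5′) or right (3′) arm of a hairpin. A probe was tested when its red signal was well above background on most arrays of either age, which left 505 of the 546 probes and left out 41. Of the probes tested, 416 were above background on all 5 arrays.

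MiRNAs are cut as a duplex from the arms of a hairpin and are loaded into Argonaute proteins, which they guide to messenger RNAs that pair with bases 2 to 8 of the miRNA, the seed. One strand of the duplex is usually kept and the other is degraded, so that the arms of a hairpin can have very different levels. Between 3 and 7 dpf zebrafish larvae hatch fully, use up their yolk, inflate the swim bladder and start to feed, while the gut, liver, pancreas and blood cells mature. The samples were whole larvae, so a lower signal from fewer cells of a type and one from less RNA per cell cannot be told apart.

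The slides set a limit to what the comparison can show. The SD per array was calculated for pairs of arrays over 324 probes above background on all 10 control arrays of both ages. It is the SD of the log2 differences between the arrays of a pair, divided by the square root of 2. In pairs of the same age and slide it was 0.0954 to 0.208 over 8 pairs. Between 3 dpf arrays of different slides it was 0.61 to 0.742 over 16 pairs, although the RNA was of the same kind. The second slide was read on another scanner model, with 63.5% and 67.3% of known spots above background in red, and the third without the extended signal range, at 81.2% to 82.1%. The part of this in the differences between slides was not tested. Between 7 and 3 dpf arrays of the same slide the SD per array was 1.05 to 1.09. For the arrays from the second slide, 3 dpf replicates 3 and 4, it was 0.168. This was no more than the 0.173 calculated from the duplicate spots of each array, and these arrays were therefore also counted as 1 sample. Each difference below was measured within the first slide, with 2 pools against 3, and its value against the 3 dpf arrays of the second slide (2 arrays) and of the third slide (3 arrays of AB wild type larvae, the controls of zic:HRAS) is given beside it for the probes on which the results turn. These comparisons share the 7 dpf arrays, and outside the first slide the slide and the age cannot be told apart. Of 472 probes tested against all 3 sets of 3 dpf arrays, 332 were called on the first slide. Of these, 214 kept their sign against all 3 sets, and 160 were called in the same direction against all 3. In the opposite direction, 74 were called against at least 1 of the other sets. Of the 163 calls with a difference of 2-fold or less, 76 kept their sign.

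The 7 dpf arrays were dimmer than the 3 dpf arrays beside them. Before normalization between arrays the median red signal was 1721.0, 746.1 and 3105.6 at 7 dpf, against 4064.5 and 3989.8 at 3 dpf on the same slide, and the share of known spots above background was 78.8% to 90.6% against 91.8% or more. The part of this in the results was not tested. No spot was saturated. Of 14 probes for miRNAs of muscle, brain, epithelium, liver, red and white blood cells and endothelium, 13 were above background on all 5 arrays, and the remaining one was the left arm of miR-223.

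The sequences that carried the largest changes are given 5′ to 3′, as the 22 bases to which the probe is complementary. Capitals mark the 7 bases that the members of a group shared, which are bases 2 to 8 of the first member shown. The right arms of miR-29, which held the largest increases, shared AGCACCA, and the probed stretch starts 1 base earlier for miR-29a and miR-29c.
miR-29b-1 right: uAGCACCAuuugaaaucagugu
miR-29a-2 right: cuAGCACCAuuugaaaucgguu
miR-29c right: cuAGCACCAuuugaaaucgguc
The right arms of miR-430, which held the largest decreases, shared AAGUGCU and differed mainly in the middle of the molecule.
miR-430a-22 right: uAAGUGCUauuuguugggguag
miR-430b-19 right: aAAGUGCUaucaaguuggggua
miR-430c-2 right: uAAGUGCUucucuuugggguag
miR-430i-1 right: uAAGUGCUauuuguuggcguag
Among the gut miRNAs that rose, the miR-194 pair shared a seed, and miR-192, which lies beside miR-194a in the genome, had another.
miR-194a left: uGUAACAGcaacuccaugugga
miR-194b left: uGUAACAGccgcuccaugugga
miR-192 left: aUGACCUAugaauugacagcca
The arms of the miR-96 hairpin are shown because the right arm fell 10.9-fold and the left arm was not called.
miR-96 left: uUUGGCACuagcacauuuuugc
miR-96 right: gCAAUUAUguguagugccaaua

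At 7 dpf, 183 probes were higher and 177 were lower than at 3 dpf on the same slide, which is 36.2% and 35% of the 505 tested and 71.3% in either direction. A probe was called at a Benjamini-Hochberg adjusted p below 0.05 in limma with a fold change above 1.2, and all differences are 7 minus 3 dpf on the log2 scale of the quantile-normalized red signal. The median difference of all probes was 0.05 and the median SE was 0.07. The values of the ages did not overlap in 446 probes (88.3%). Scaling each array to its 75th percentile instead moved the median of all probes to -0.28 and gave 127 higher and 233 lower, so that small differences have a direction only relative to the other miRNAs. The calls belonged to 134 higher and 128 lower sequences of 371, because several hairpins give the same mature miRNA. Changes were larger among dimmer probes. Split into 3 bins by mean signal, the 168 brightest probes had a median absolute difference of 0.36, against 1.02 in the middle bin and 1.12 in the dimmest, where 72 of 169 probes were lower and 48 higher.

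**Figure D1:**
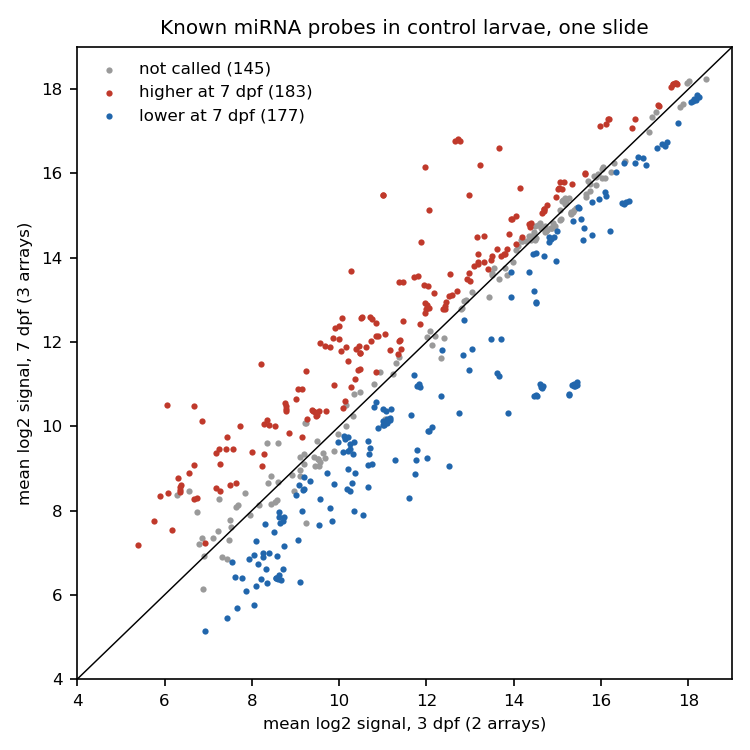
Mean log2 red signal of each of the 505 known miRNA probes at 3 dpf (x axis, 2 arrays) and at 7 dpf (y axis, 3 arrays) on the first slide, with the line of equal signal and colors for the 183 probes called higher and the 177 called lower. The brightest probes lie near the line, and the largest distances from it are at middle and low signals.

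The largest increases were those of the miR-29 family, whose known targets in mammals include transcripts of collagens and other matrix proteins and of DNA methyltransferases. All 11 miR-29 probes tested, of 12 known, were called higher (36.2% of all probes were), with a median of 4.10. Of these, 8 were above background on all 5 arrays. The left arms of miR-29a-1, miR-29a-2 and miR-29b-3 were tested only through their 7 dpf signals. They could hardly be called lower, so their direction adds no separate support. The right arm of miR-29a-2 had log2 signals of 10.94 and 11.05 at 3 dpf and of 15.53, 15.46 and 15.47 at 7 dpf. It rose 22.6-fold (4.50 ± 0.05 SE, adjusted p = 3.36e-06 in limma), the largest increase of all probes. MiR-29c right went from 11.93 and 12.00 to 16.16, 16.13 and 16.13, an increase of 4.18 ± 0.04. MiR-29b-1 right went from 12.58 and 12.71 to 16.81, 16.75 and 16.75, an increase of 4.13 ± 0.06. The signals of the 3 probes thus rose by nearly the same amount and no 3 dpf value came near a 7 dpf value. Their sequences differ by few bases, and how far each probe binds the other forms was not tested. Against the second and the third slide the differences were 4.30 and 4.52 for miR-29a-2, 4.40 and 4.83 for miR-29c, and 4.89 and 4.12 for miR-29b-1, so that they were about as large for every set of 3 dpf arrays, and 9 and 10 of the 11 probes were called higher there. The passenger strands of the same hairpins rose too. The left arm of miR-29a-2 had 6.04 and 6.09 at 3 dpf, not well above background, and 10.60, 10.45 and 10.46 at 7 dpf, which makes it at least 16.9-fold higher. MiR-29b-1 left rose by 3.27 ± 0.07, and those of miR-29a-1 and miR-29b-3, below background at 3 dpf, were at least 2.52-fold and 4.23-fold higher. At 14 dpf, on 3 arrays of the same slide normalized together with these, the right arm of miR-29a-2 averaged 15.47 against 15.39 at 7 dpf and 11.01 at 3 dpf. The left arms were lower again at 14 dpf, at 9.12 against 10.42 for miR-29a-2 and 8.57 against 9.98 for miR-29b-1.

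The largest decreases were those of the miR-430 family, which is made in great amounts at the onset of zygotic transcription in zebrafish and speeds the decay of maternal messenger RNAs. The 35 probes held 9 sequences, 7 of which had probes called lower. Of the 35 probes 30 were called lower and 0 higher (35% of all probes were called lower), with a median of -3.31. The 18 probes of right arms, the strands known to act, fell by 3.31 to 4.51. MiR-430b-19 right had 15.29 and 15.22 at 3 dpf and 10.76, 10.64 and 10.85 at 7 dpf, which is 22.8-fold lower (difference -4.51 ± 0.08, adjusted p = 4.99e-06), and 9 probes shared this sequence. MiR-430a-22 right had 14.53 on both 3 dpf arrays and 10.71, 10.70 and 10.76 at 7 dpf, a 14.0-fold decrease that 7 probes shared. The right arms of miR-430i-1 and miR-430c-2 fell 11.8-fold and 9.94-fold. Each set of values was tight and far from that of the other age. Against the second and the third slide the differences were -4.87 and -5.18 for miR-430b-19, -4.18 and -5.05 for miR-430a-22, -1.96 and -4.13 for miR-430i-1, and -2.69 and -4.30 for miR-430c-2. The levels were lower again at 14 dpf, at 7.62 for miR-430b-19 and 7.97 for miR-430a-22. The left arms changed less. That of miR-430b-1 averaged 11.02 at 3 dpf and 10.13 at 7 dpf, a difference of -0.89 ± 0.08 that was -0.42 against the third slide but 3.15 against the second. The sequence of miR-430b-1 left is held by 9 probes, so these are not separate miRNAs. Against the second slide 9 miR-430 probes were called higher and 21 lower, while 35 of 35 were called lower against the third.

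**Figure D2:**
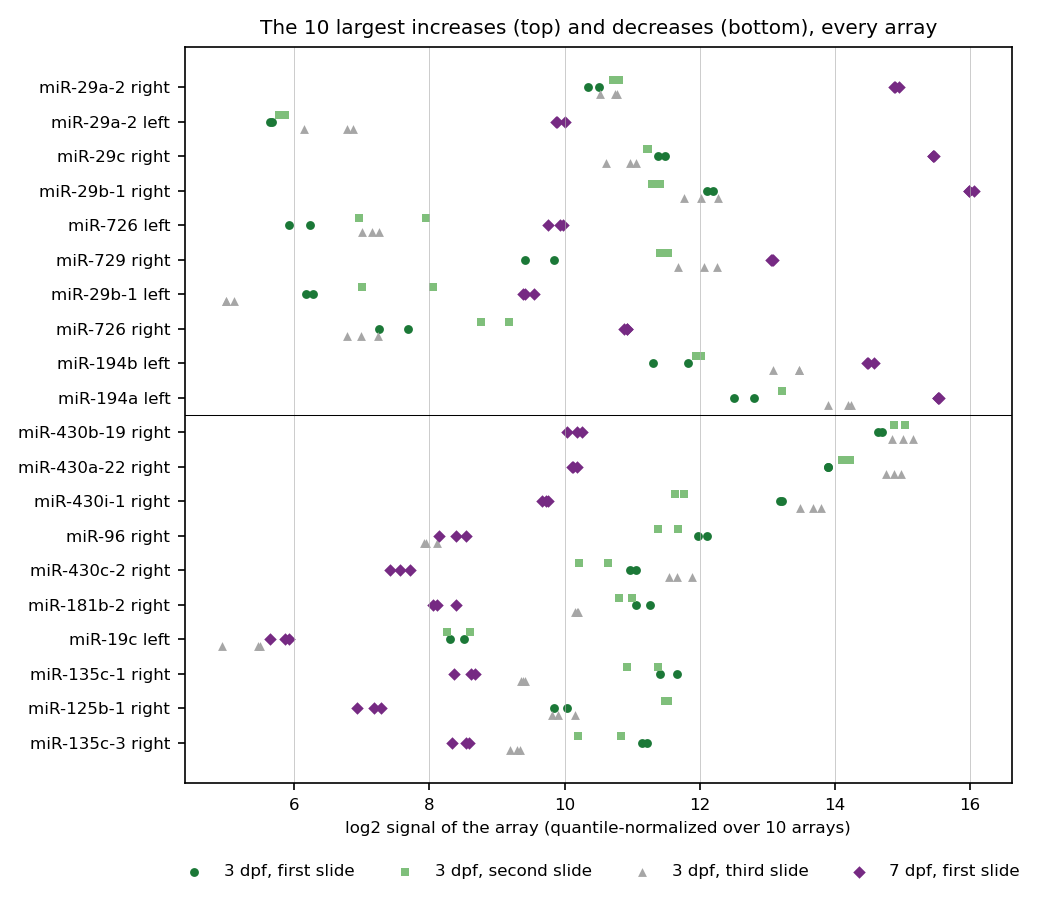
Log2 red signal of the 10 largest increases (top) and the 10 largest decreases (bottom) on each of 10 control arrays, with circles for 3 dpf arrays of the first slide, squares and triangles for those of the second and the third slide, and diamonds for 7 dpf. The 10 arrays were normalized together, so values differ slightly from those in the text. For the miR-29 and miR-430 right arms the 3 dpf signals of each slide lie apart from the 7 dpf signals, which are all from the first slide. The signals of miR-96 right at 3 dpf on the third slide (7.92 to 8.11) lie just below those at 7 dpf (8.15 to 8.54).

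The miRNAs of the gut and liver rose. MiR-194b left went from 11.86 and 12.25 to 15.12, 15.18 and 15.11, an 8.45-fold increase. That of miR-194a rose 7.85-fold, from 13.06 and 13.41 to 16.20, 16.22 and 16.20. MiR-192 left, which is encoded beside miR-194a and like it is a miRNA of the gut and kidney epithelium, rose 7.78-fold, from 13.60 and 13.71 to 16.56, 16.56 and 16.72. MiR-122 left, the main miRNA of hepatocytes, had 11.85 and 11.88 at 3 dpf and 14.36, 14.36 and 14.41 at 7 dpf (2.52 ± 0.04, 5.72-fold, adjusted p = 4.37e-06). All of these were without overlap, but the increases were smaller against the other slides. They were 2.66 and 1.202 for miR-194b, 2.26 and 1.52 for miR-194a, 1.85 and 1.97 for miR-192, and 1.03 and 0.99 for miR-122 against the second and the third slide. At 14 dpf miR-192 was at 17.67, miR-194a at 17.02 and miR-194b at 15.93, above 7 dpf, while miR-122 was at 14.41. The 20 probes for digestive organs included 10 called higher and 4 lower, with a median of 0.59 that became -0.18 without normalization between arrays. The right arms of miR-375-1 and miR-375-2, made in the endocrine pancreas, rose by 1.05 and 1.40. The pancreatic miR-216 and miR-217 did not rise. Their left arms had differences between -0.10 and 0.13 and were not called, and the right arms of miR-216b-1, miR-216b-2 and miR-217-1 were lower, in miR-217-1 below background at 7 dpf and at least 2.27-fold lower.

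Most probes of a list of miRNAs described in teleosts rose as well. Of 31 probes for these, miR-722 to miR-739, 22 were called higher and 2 lower, with a median of 1.54. Against the second slide 17 were higher and 4 lower, and against the third 18 were higher and 5 lower. MiR-726 left had 6.46 and 6.87 at 3 dpf and 10.51, 10.33 and 10.59 at 7 dpf, a 14.0-fold increase, and its right arm rose 9.58-fold, from 8.02 and 8.41 to 11.50, 11.42 and 11.50. MiR-729 right rose 10.8-fold, from 10.09 and 10.43 to 13.71, 13.67 and 13.69. Both arms of miR-726 and miR-729 right were clear of the 3 dpf values, although the rise was smaller against the second slide (2.28, 1.80 and 1.85). For the third slide the differences were 2.88, 4.14 and 1.11, so that the rise of miR-729 right was smallest there. The sequences of the arms of miR-726 share no seed.
miR-726 left: cUGGAAUUccgcuaguucugaa
miR-726 right: uUCACUACuagcagaacucgga
Both probes of miR-727 and both of miR-728, neighbors in the genome, rose, by 1.61 to 2.34. MiR-732 left, below background at 3 dpf, was at least 3.83-fold higher. The 2 decreases were miR-739 left (-1.04) and miR-737 right (-0.50). A separate list held 17 probes of miR-455 to miR-462, of which 13 rose and 3 fell. Of these, 4 that rose were probes of miR-455, which mammals also have. The left arm of miR-461 went from 6.84 and 6.51 to 9.37, 8.68 and 9.21 (2.41 ± 0.25) and the right arm of miR-458 from 10.42 and 10.58 to 12.56, 12.65 and 12.47 (2.07 ± 0.08). The 3 decreases were probes of miR-457, and miR-457a lies beside miR-15b, whose arms also fell.

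The miRNAs of white and red blood cells moved in opposite directions on the first slide. Of 10 white blood cell probes 7 were higher and 1 was lower, with a median of 1.45. Against the second slide 8 of 9 were higher and 0 lower (median 2.22), but against the third 4 were higher and 3 lower (median 0.10). MiR-146a left, which NF-kappaB induces in mammalian leukocytes, averaged 10.07 at 3 dpf and had 12.58, 12.41 and 12.71 at 7 dpf, a 5.64-fold increase. MiR-146b-1 left rose 4.73-fold, the right arm of miR-150, a lymphocyte miRNA, 3.45-fold, and the left arm of miR-142b, found in all white blood cells, 2.71-fold, from 10.37 and 10.40 to 11.82, 11.77 and 11.88. MiR-223 right, the strand that acts in myeloid cells, rose by 1.45, while its left arm fell by 1.08. Against the second and the third slide the differences were 2.22 and 1.99 for miR-146a, 2.42 and 3.95 for miR-142b, and 1.44 and -0.41 for miR-150. All 4 probes of the red blood cell miRNAs miR-144 and miR-451 were lower. The right arm of miR-144 had 16.20 and 16.22 at 3 dpf and 14.61, 14.81 and 14.50 at 7 dpf (-1.57 ± 0.10), and the left arm of miR-451 went from 15.58 and 15.58 to 14.34, 14.48 and 14.46 (-1.15 ± 0.06). The decrease depended on the 3 dpf arrays used. MiR-144 right was higher at 7 dpf by 2.47 and 2.41 against the second and the third slide, and the left arm of miR-451 differed by -0.23 and -0.12. The direction of both is therefore not settled by these arrays. In the transgenic RNA of the same arrays miR-451 left differed by 0.28, opposite to the control RNA, and miR-144 right by -0.60.

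The endothelial miR-126 was not called in its right arm, while all probes of the smooth muscle miRNAs were called. MiR-126 right, the endothelial miRNA, had 15.94 and 15.92 at 3 dpf and 16.00, 15.99 and 16.00 at 7 dpf and was not called (0.06 ± 0.03, adjusted p = 0.145). Its left arm differed by 0.66 ± 0.08 on the first slide, by 3.38 against the second and by -0.10 against the third, so that it had no settled direction. In the smooth muscle list 4 of 6 probes rose and 2 fell (71.3% of all probes were called), with a median of 0.96. These 6 probes, for 4 sequences, kept their sign against all 3 sets of 3 dpf arrays. MiR-143-1 left rose 2.75-fold (1.46 ± 0.11), with differences of 0.40 and 1.12 against the second and the third slide. MiR-143-1 right went from 15.05 and 15.07 to 15.77, 15.80 and 15.80 (0.74 ± 0.03), with differences of 0.39 against each of the other slides. The arms of miR-145 moved apart, the left up by 1.31 and the right down by 0.82.

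In the brain miRNAs single hairpins moved far while the group was balanced. Of 70 probes 28 were higher and 34 lower, with a median of -0.10, beside 36.2% and 35% of all probes. The largest increases were those of miR-132 and miR-212, a pair that neuronal activity induces in mammals through CREB. All 8 of their probes rose, by 1.57 to 2.43. MiR-132-2 right had 9.89 and 9.92 at 3 dpf and 12.32, 12.36 and 12.32 at 7 dpf, a 5.38-fold increase, or 2.43 on the log2 scale, against 1.39 and 1.98 for the second and the third slide. The right arm of miR-124, the major miRNA of neurons, rose slightly, by 0.38 to 0.48 on 6 probes. These probes share the same sequence, so they measure the same mature miRNA and cannot be assigned to single hairpins. The probe named for miR-124-1 went from 17.69 and 17.72 to 18.14, 18.15 and 18.15, but was -0.14 against the second slide. The left arms of the 6 miR-124 hairpins fell by 1.63 to 2.35, for miR-124-1 from 12.32 and 12.36 to 10.80, 10.60 and 10.73. The arms of miR-7, found in neurons and endocrine cells, also parted, with left arms up by 0.54 to 0.65 and right arms down by 1.87 to 2.29. None of these right arms was above background on all 5 arrays. Their means at 7 dpf were 5.76 to 7.76, so the size of their decrease is uncertain. The arms of miR-9, made in neural progenitors, were both lower. MiR-9-1 left went from 18.15 and 18.22 to 17.75, 17.76 and 17.75 (-0.43 ± 0.04), but was 0.80 higher against the second slide. Of the pair that promotes oligodendrocyte differentiation in mammals, miR-338-1 right rose by 0.96 ± 0.05 (2.66 and 1.47 against the other slides). MiR-219-1 left fell from 16.61 and 16.56 to 15.32, 15.34 and 15.34 on the first slide and was higher by 0.63 and 1.14 against the others. Its direction was thus not settled by these arrays. MiR-128-1 right rose by 0.96 ± 0.05, with differences of -0.68 and 2.19 against the second and the third slide.

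On the first slide the muscle miRNAs changed little in the strands that act and were lower in their passenger strands. Of 20 probes 11 were lower and 0 higher, with a median of -0.40. The same 20 probes had 5 higher and 12 lower against the second slide, and 3 higher and 11 lower against the third. MiR-1-1 right had 17.81 and 17.81 at 3 dpf and 17.56, 17.61 and 17.56 at 7 dpf, a difference of -0.24 ± 0.04 that was below the fold threshold. The right arm of miR-133a-1 had 15.19 and 14.95 against 14.92, 14.82 and 14.97 and was not called (adjusted p = 0.171). MiR-206-1 right was lower by a little more, 16.97 and 16.97 against 16.41, 16.32 and 16.39 (-0.59 ± 0.05, and -1.36 and -1.45 against the second and the third slide). The left arms of the 8 hairpins of miR-1, miR-133 and miR-206 fell by 0.69 to 1.68. That of miR-133a-1 went from 14.55 and 14.47 to 12.90, 12.91 and 13.01 and that of miR-206-1 from 10.18 and 10.18 to 8.60, 8.28 and 8.63. The latter difference was -1.66 and -1.71 against the other slides. Both left arms were higher again at 14 dpf. Normalized together with the 14 dpf arrays, miR-133a-1 left averaged 14.43, 12.95 and 14.18 at 3, 7 and 14 dpf, and miR-206-1 left 10.05, 8.46 and 10.20. Not all left arms kept their direction. Against the second slide that of miR-1-1 gained 2.16 on its right arm, which differed by -0.28 there, and that of miR-206-2 gained 1.33.

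In the epithelial miRNAs too, passenger strands held the largest decreases. Of 16 probes 8 were lower and 0 higher, with a median of -0.32, and 12 and 13 of them tested against the second and the third slide had 4 higher and 5 lower and 6 higher and 6 lower. MiR-203a right, the skin miRNA, went from 16.81 and 16.75 to 16.22, 16.20 and 16.32 (-0.54 ± 0.05, and -0.43 and -0.62 against the other slides). MiR-200a right had 15.84 and 15.84 against 15.92, 15.94 and 15.94 and was not called. The decreases were largest in miR-205 right, from 11.02 and 11.52 to 8.96, 9.31 and 9.31, and miR-200a left, below background at 7 dpf and at least 1.6-fold lower. Normalized together with the 14 dpf arrays, miR-205 right averaged 11.30, 9.11 and 11.04 at 3, 7 and 14 dpf. Of 18 probes for miRNAs of the Hox clusters 12 were lower and 2 higher. MiR-10a left fell from 15.53 and 15.53 to 14.97, 14.87 and 14.92 (-0.61 ± 0.05, -0.80 and 0.13 against the other slides), and miR-196a-1 right from 8.68 and 8.81 to 7.47, 6.79 and 7.24. The 10 cartilage and mesenchyme probes had 2 higher and 3 lower. MiR-140 left, the cartilage miRNA, was higher by 0.49 ± 0.11 on the first slide and lower by 0.59 and 1.10 against the others.

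In the sensory organs the hairpins of miR-183, miR-96 and miR-182, which are transcribed together in hair cells and photoreceptors, changed unequally. The left arm of miR-96 had 16.10 and 16.00 at 3 dpf and 16.13, 16.16 and 16.18 at 7 dpf and was not called. Its right arm had 12.44 and 12.58 against 9.11, 8.83 and 9.24, which is 10.9-fold lower, with a difference of -3.03 against the second slide and 0.38 against the third. The arm was also back at 10.93 on the 14 dpf arrays. MiR-183 left was higher by 1.02 ± 0.09 and its right arm lower by 0.96 ± 0.07. Against the third slide miR-183 left was lower by 1.16.

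The let-7 family times the passage from larval to adult cell fates in worms and increases with differentiation in vertebrates. Its calls split by arm. Of 31 probes 12 were higher and 8 lower, with a median of 0.29 that became -0.12 without normalization between arrays. All 18 left arms, which share the seed GAGGUAG, had differences above 0 on the first slide, from 0.13 to 1.60, and the 12 called higher were all left arms. The sequences of let-7a and of the forms with the largest differences follow.
let-7a-1 left: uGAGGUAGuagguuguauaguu
let-7i left: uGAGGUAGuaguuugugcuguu
let-7j left: uGAGGUAGuuguuuguacaguu
Let-7a-1 left had 14.18 and 14.19 against 14.40, 14.41 and 14.36 and stayed below the fold threshold (0.21 ± 0.04). Let-7i left went from 11.91 and 11.97 to 13.35, 13.30 and 13.39 (1.41 ± 0.05) and let-7j left from 10.76 and 10.94 to 12.51, 12.44 and 12.41 (1.60 ± 0.07). Forms of a family differ by few bases, and how far their probes bind each other's miRNA was not tested. Against the second and the third slide let-7i differed by 1.42 and 1.52 and let-7j by 2.19 and 2.34. Let-7a-1 left differed by -0.17 and -0.01 there, and let-7d-2 left, called higher on the first slide (0.57), was called lower against the third (-0.31). Against the third slide the list had 6 higher and 8 lower of 29 probes, with a median of -0.01, so that the small differences of the left arms had no settled direction. The 8 lower probes were right arms, with the largest decrease in let-7d-1, from 8.51 and 8.61 to 6.41, 6.01 and 6.79. None of these right arms was above background on every array, and that of let-7d-1 was so on only 1 array of the later age. Their means at the later age were 6.40 to 8.52, so the size of their decrease is uncertain. The lower side of the split by arm thus rests on dim signals.

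Several families that are found in many tissues were mostly higher. Both probes of miR-101, which targets the Polycomb enzyme Ezh2 in mammals, rose. MiR-101a right went from 12.91 and 13.03 to 15.43, 15.56 and 15.45, a 5.70-fold increase, and the right arm of miR-101b rose 2.84-fold, from 14.11 and 14.18 to 15.63, 15.64 and 15.67. Against the second and the third slide the differences were larger, 4.27 and 4.26 for miR-101a and 4.73 and 3.80 for miR-101b.
miR-101b right: uACAGUACuaugauaacugaag
miR-101a right: guACAGUACugugauaacugaa
Of 11 probes for miR-193 and miR-365 8 were higher and 0 lower, with a median of 1.27. MiR-365-2 left rose 4.15-fold, from 10.59 and 10.48 to 12.65, 12.55 and 12.56, and the right arm of miR-193b 2.49-fold. Of 8 miR-26 probes 5 were higher. MiR-26b left had 15.99 and 15.99 against 17.16, 17.10 and 17.10 (1.13 ± 0.04) on the first slide, but differed by -0.16 against the second and 0.57 against the third. Of 12 miR-30 probes 9 were higher and 1 lower, and the left arms called were higher by 0.37 to 0.51. Without normalization between arrays the medians of the miR-26 and miR-30 lists were -0.03 and -0.07. The miR-23, miR-24 and miR-27 clusters had 14 of 22 probes higher and 2 lower on the first slide, 3 higher and 6 lower against the second, and 10 higher and 6 lower against the third. The left arm of miR-34, a p53 target in mammals, rose 2.45-fold, from 12.10 and 11.95 to 13.30, 13.25 and 13.41, but was lower by 0.44 against the third slide. Of 5 probes for miR-103 and miR-107 4 were higher, and 0 were called against the third slide.

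Paralogs of the miR-17-92 clusters, which promote cell division in mammals, and the miR-181 family were mostly lower. The 14 probes of this list were for the arms of miR-18c, miR-19c, miR-20b, miR-25, miR-363, miR-92b and miR-93. Of these probes 10 were lower and 0 higher, with a median of -0.65. MiR-20b left went from 17.02 and 17.02 to 16.18, 16.28 and 16.16 (-0.82 ± 0.05, and -0.78 and -1.44 against the second and the third slide). MiR-18c left went from 15.79 and 15.80 to 14.53, 14.59 and 14.47 (-1.27 ± 0.05) and the right arm of miR-363 from 14.50 and 14.42 to 13.19, 13.23 and 13.23 (-1.25 ± 0.04). These 3 miRNAs and miR-19c lie in 1 cluster, all 8 tested probes of which were lower. The decrease of miR-363 was about as large against the other slides (-1.32 and -1.20), while miR-18c was 0.57 higher against the third. MiR-19c left was below background at 7 dpf and at least 3.23-fold lower, but its measured signal, not tested there, was 0.46 higher against the third slide. Of 16 miR-181 probes 12 were lower and 0 higher, with a median of -0.75. The right arms fell by 0.82 to 2.87, and the left arms, the strands that act in lymphocytes and neurons, had differences of -0.24 to -0.67.
miR-181a-1 left: aACAUUCAacgcugucggugag
miR-181a-1 right: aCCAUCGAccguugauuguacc
The right arm of miR-181a-1 went from 13.61 and 13.63 to 11.21, 11.26 and 11.28 (-2.37 ± 0.04), against -2.00 and -0.34 on the other slides. Its left arm had 15.32 and 15.32 against 15.11, 15.06 and 15.08. MiR-181b-2 right fell 7.30-fold, with differences of -2.58 and -1.91 against the second and the third slide.

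The remaining lists had fewer calls or no common direction. MiR-210 right, which low oxygen induces, fell from 12.85 and 12.82 to 11.65, 11.72 and 11.68 (-1.15 ± 0.04, and -1.67 and -1.58 against the other slides), and both miR-210 probes were lower on the first slide. The left arm, however, was 1.51 higher against the third slide. In miR-21 0 of 4 probes were called on the first slide, and miR-21-1 left had 14.50 and 14.52 against 14.45, 14.45 and 14.50. That arm differed by -0.72 and -1.18 against the second and the third slide, and by -0.72 in the transgenic RNA of the same arrays. Of the 4 probes, 0 were called higher and 2 lower against the second slide, and 2 higher and 2 lower against the third. Of 7 probes for miR-15 and miR-16 3 were lower and 0 higher, with miR-16b right below background at 7 dpf and at least 2.29-fold lower. MiR-222 left fell by 1.23 ± 0.06 on the first slide and was 0.53 higher against the third. Of 20 probes for miR-99, miR-100 and miR-125 6 were lower and 1 higher, the largest decrease being miR-125b-1 right, from 10.43 and 10.64 to 7.67, 7.94 and 8.05 (-4.10 and -2.95 against the other slides). The right arms of miR-135c-1 and miR-135c-3 fell by 2.76 and 2.58, while 3 other miR-135 probes were higher. The lists for miR-130, miR-301 and miR-454 (3 higher, 5 lower of 17), miR-148 and miR-152 (1 and 1 of 4) and miR-22 (1 and 1 of 4) had no common direction. The medians of the miR-22, miR-34, miR-126, miR-135 and sensory organ lists changed sign when the arrays were scaled to the 75th percentile, and those of the cartilage, miR-22, miR-99, miR-130 and miR-221 lists when arrays were centered on their median.

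**Figure D3:**
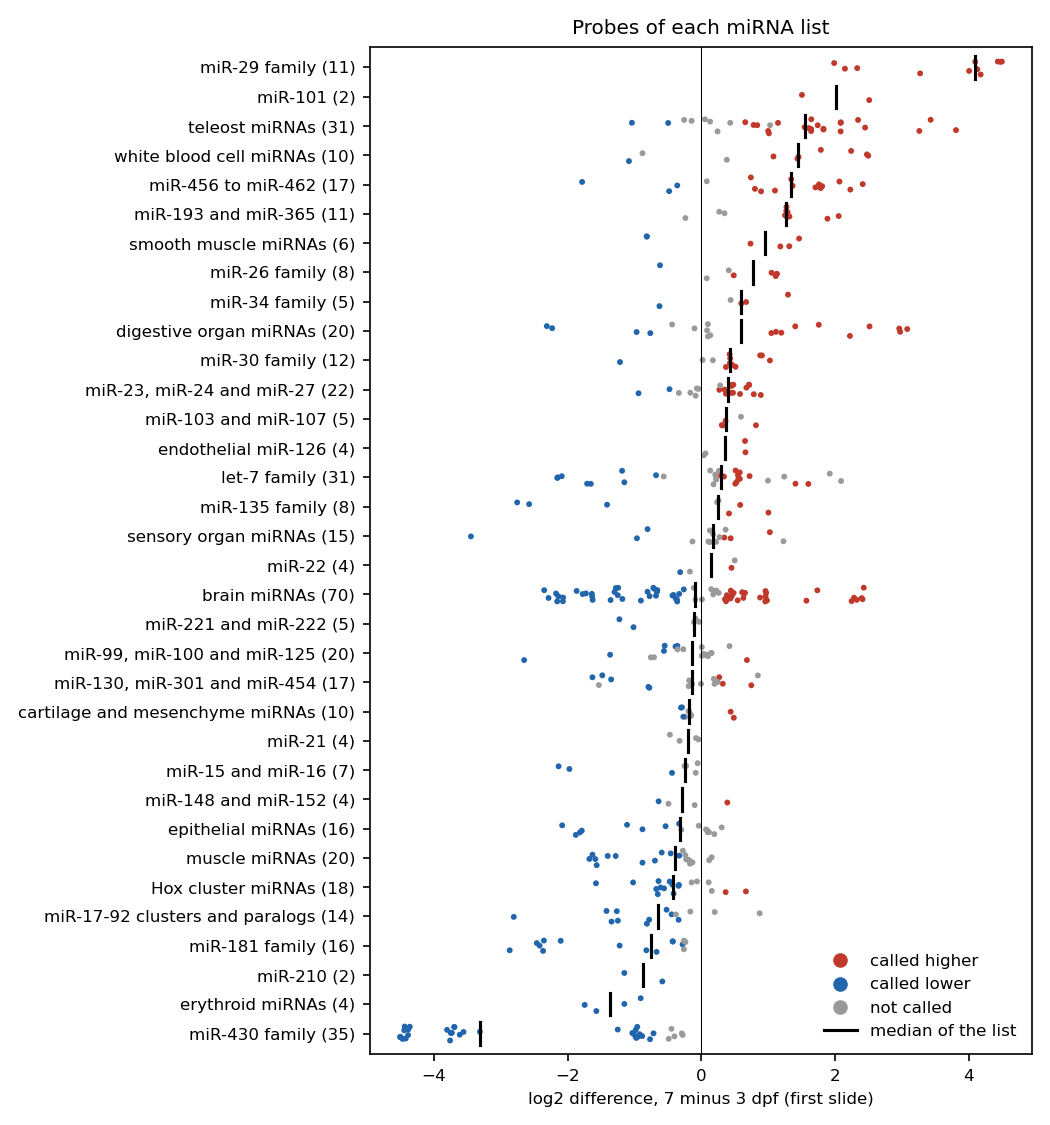
Log2 difference, 7 minus 3 dpf on the first slide, of each probe in 34 lists of miRNAs, with the number of probes in parentheses, colors for called probes and a bar for the median of the list. The miR-29 probes form the right end with a median of 4.10 and the miR-430 family the left end with -3.31, where right arms and left arms make separate groups.

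The arms of a hairpin were then compared with each other, which leaves out anything that changes both by the same amount. The difference left minus right of the log2 signals was tested in the hairpins whose arms were both above background at both ages, and it changed in 74 of these (69.2%), upward in 39 and downward in 35. Of the 74, 39 had the same sign against all 3 sets of 3 dpf arrays, 19 of them upward, so that for many hairpins the direction depended on the 3 dpf arrays used. The arms were called in opposite directions in 10 hairpins, in the same direction in 42, and in 39 hairpins 1 arm was called and the other was not. The opposite ones were 4 hairpins of miR-124, whose right arms share the same sequence, and those of miR-145, miR-183, miR-190b, miR-196b, miR-22a-1 and miR-30c. In miR-96 the left arm gained 3.55 ± 0.15 on the right (3.50 and 0.24 against the second and the third slide). In miR-430b-1 it gained 3.50 ± 0.10 (7.84 and 4.71) and in miR-145 2.13 ± 0.10 (2.15 and 2.52), while in miR-124-1 it lost 2.07 ± 0.10 (-2.00 and -1.66). The right arm fell in miR-96 and miR-430b-1. In miR-145 the left arm rose by 1.31 and the right arm fell by 0.82, and in miR-124-1 the left arm fell by 1.63 and the right arm rose by 0.44. The change in miR-181a-1 was 2.13 ± 0.09 on the first slide and -0.91 against the third, so that it had no settled direction. The hairpin with the largest spread was miR-146b-1, where the left arm gained 3.12 ± 1.04 (adjusted p = 0.0382).

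**Figure D4:**
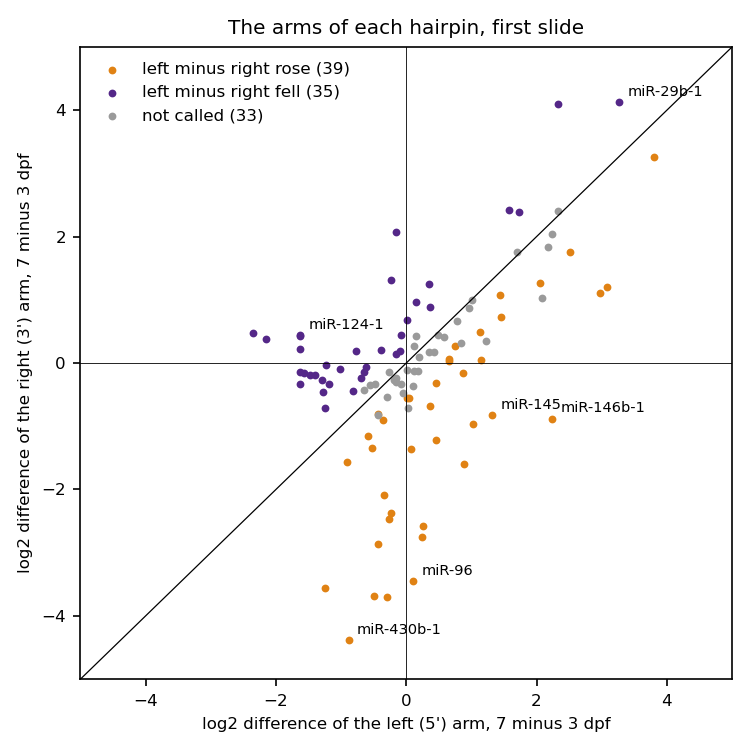
Log2 difference, 7 minus 3 dpf, of the left arm (x axis) and the right arm (y axis) of each hairpin tested on the first slide, with the line of equal change and colors for the 39 hairpins in which the left arm gained on the right and the 35 in which it lost. The miR-29 hairpins lie at the upper right, where both arms rose, and miR-124-1 lies above the line with its left arm lower and its right arm higher.

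Hairpins that lie close together in the genome are often cut from 1 transcript. RefSeq genes gave 32 clusters of at least 2 miRNA families within 10 kb (228 of 251 names matched). In 25 of the 32 all calls had the same direction, though some of these clusters had only 1 call. Of all probes tested, 71.3% were called in either direction. All 6 probes of the miR-132-1 and miR-212 cluster, some of them for the same arm, rose by 1.73 to 2.41. So did all 4 of miR-192 and miR-194a (1.12 to 2.97), all 3 of miR-193a-1 and miR-365-2, and all 4 of miR-727 and miR-728. All 4 tested probes fell in each of the clusters miR-144 and miR-451, miR-133c and miR-206-2, and miR-15b and miR-457a on the first slide. Against other slides miR-144 right (2.47 and 2.41), miR-133c right (0.62 against the second) and miR-15b left (0.72 against the third) were higher instead. In the cluster of miR-182, miR-183 and miR-96, 1 probe rose and 3 fell.

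With all 4 arrays at 3 dpf, 96 probes were higher and 101 lower of 473 tested (20.3% and 21.4%, 41.6% in either direction), and 254 had an unadjusted p below 0.05. With replicates 3 and 4 counted as 1 sample, 103 were higher and 118 lower of 505. The values of the ages did not overlap in 286 probes (60.5%). The median SE was 0.23, against 0.07 within the slide. The miR-29 list kept 11 of 11 probes called higher with a median of 4.13 and miR-430 20 of 35 called lower with a median of -2.69. The teleost list had 13 higher and 1 lower, white blood cells 6 of 9 higher, miR-193 and miR-365 7 of 11 higher, and miR-181 11 of 16 lower. In the muscle list 6 of 20 and in the epithelial list 2 of 12 were lower. Of the probes above, miR-122 left (1.74, adjusted p = 0.0213), miR-192 left (2.35, 0.00152), miR-132-2 right (1.90, 0.00859) and miR-101a right (3.25, 0.00267) kept their call in limma. The call was lost for miR-26b left (0.41, adjusted p = 0.42), miR-124-1 right (0.23, 0.504), miR-9-1 left (0.00, 0.999), miR-219-1 left (-0.28, 0.706), miR-144 right (0.44, 0.765), miR-451 left (-0.68, 0.102) and miR-193b right (0.84, 0.0772).

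**Figure D5:**
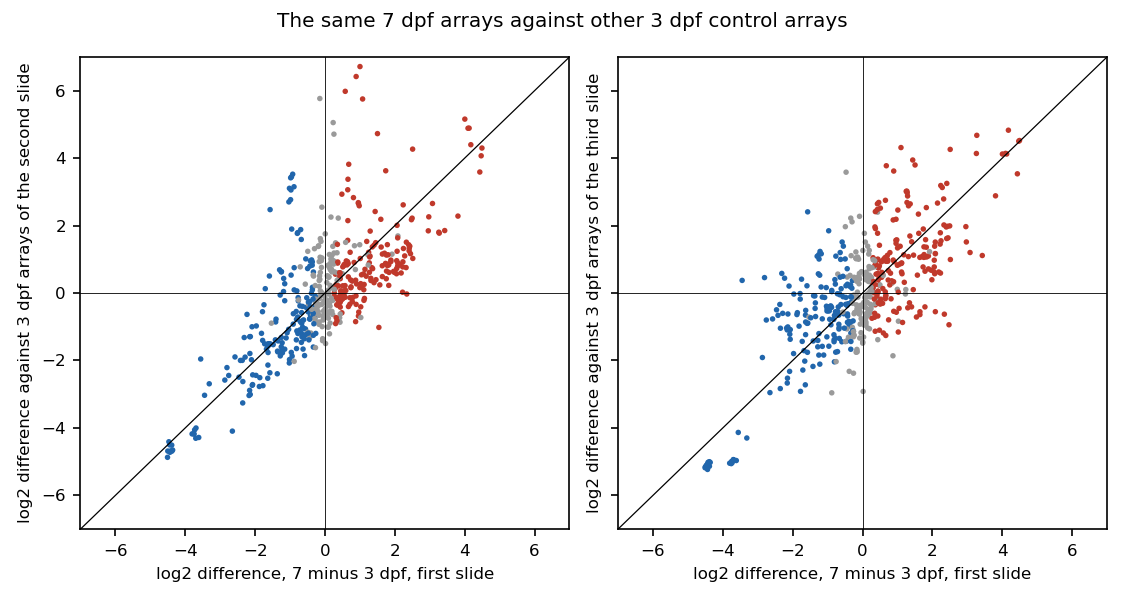
Log2 difference of each probe, 7 minus 3 dpf on the first slide (x axis), against the difference of the same 7 dpf arrays from the 3 dpf control arrays of the second and of the third slide (y axes). The miR-29 and miR-430 right arms lie far from 0 on every axis, while many small differences change sign. Of 332 called probes tested against all 3 sets, 214 kept their sign against all 3. In the opposite direction, 74 were called against at least 1 other set.

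The green channel of the same 5 arrays held the RNA of other pools, those of kita:HRAS larvae of the same ages. In it 181 probes were higher and 173 lower of 494 tested (36.6% and 35%, 71.7% in either direction), and the ages did not overlap in 84.4%. All 11 miR-29 probes were higher there, with a median of 3.64, and 34 of 35 miR-430 probes were lower, with a median of -3.36. The differences were 3.81 for miR-29a-2 right, -4.41 for miR-430b-19 right, 3.21 for miR-192 left, 2.40 for miR-122 left, 2.27 for miR-132-2 right and 3.61 for miR-726 left. All of these except that of miR-192 left were smaller in size than in control RNA. The gap was larger for miR-146a left (1.44, against 2.50 in control RNA) and miR-96 right (-2.44 against -3.45). The channels of an array are tied by the dye normalization within the array, so that the green values are not independent of the red ones.

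At 14 dpf, 4 of the 10 largest increases and 4 of the 10 largest decreases had moved further in the same direction. A move of any size counted, and the same count over all probes was not made. The increases were miR-29a-2 right, miR-729 right, miR-194b left and miR-194a left, and the decreases were the right arms of the 4 miR-430 forms. MiR-29a-2 right (15.39 at 7 dpf, 15.47 at 14 dpf) and miR-729 right (13.65 and 13.72) hardly moved. Among the 10 largest decreases, right arms were higher again at 14 dpf for miR-96 (10.93), miR-181b-2 (10.37), miR-135c-1 (11.17), miR-135c-3 (10.97) and miR-125b-1 (10.07). Decreases outside these 10 went both ways at 14 dpf. MiR-222 left was higher again (11.80 at 7 dpf, 13.29 at 14 dpf), and miR-210 right fell further (11.66 and 11.01).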

How the data were processed

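Total RNA of whole zebrafish larvae was hybridized to custom 2-color Agilent arrays after labeling with Hy3 and Hy5. The authors deposited the output of Agilent Feature Extraction (10.7.3.1 per the file headers, 9.5 and 9.5.3.1 in the submitters' processing notes), in which the red and green intensities of a spot are background-subtracted and dye-normalized by LOWESS within each array, with surrogate values for dim spots and flags for spots well above background. No normalization between arrays had been applied. The deposited log10 ratios of red over green, and the value table made from them, were not used, since a ratio cancels the level of the control RNA. Arrays of the same age on different slides differed far more than those on the same slide, and dye normalization ties each red level to the transgenic RNA on its array. Both can move the levels.

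The red intensities were converted to log2, outlier spots were left out, the 2 spots of a probe were averaged, and arrays were quantile-normalized over the 546 known probes. A probe counted as above background on an array when over 0.5 of its spots were flagged so, and was tested when that held on 2 of 3 arrays at 7 dpf or 2 of 2 at 3 dpf (3 of 4 with all arrays). Ages were compared in R 4.3.3 with the two-sided test of limma 3.58.1 and Benjamini-Hochberg adjustment over the probes tested. Within the slide the fit had 3 residual degrees of freedom, a prior of 1.26 degrees of freedom and a prior SD of 0.065. With 2 pools against 3, an exact permutation test of a single probe could not pass the threshold, so the p-values rest on the model of limma. In it the spread of the probe itself (3 degrees of freedom) weighs more than the spread shared over probes (1.26). For a probe above background on no array of 1 age, the lower bound of its fold is the mean of the bright age over the mean of, per array, the lowest signal among probes well above background or the probe's own, whichever is higher. The level of a probe was set against no other probe. Files were read with Python 3.11.15, pandas 2.3.3 and numpy 2.4.6, and figures drawn with matplotlib 3.10.9. The scripts were tested on simulated data.

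The probes named by rule were the 10 largest increases and decreases without overlap, identical sequences once, and the most changed called probe of each of 34 lists, or the brightest where none was called. This gave 45 probes, and 42 more, like the other list members mentioned, were picked with their values in view. The members and lists were chosen with earlier results of these data known. Sequences come from the arrays' own probe column, and gene neighborhoods from RefSeq (GRCz12tu), used for names and neighbors only. Replicate numbers did not pair the samples, since deviations of same-numbered arrays correlated between -0.05 and 0.021. Alternatives were other scalings between arrays, normexp background correction (offset 50), other filters and thresholds, averaging of identical sequences, a prior with trend and robust estimation, the 14 dpf arrays in the fit, the slide and the replicate number as blocks, other 3 dpf arrays, and leaving out each array.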

Additional observations from a re-analysis of the deposited data

Results flagged for a closer look

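Among 83 named probes tested on the 4 control arrays at 3 dpf, the left arm of miR-20b had 1 array apart from the rest, replicate 3 at a log2 signal of 16.49 against 16.14, 16.14 and 16.10 when all 7 arrays were normalized together. Its gap to the nearest array was above the critical value of Dixon's test, which chance passes in about 1 of 20 groups.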

How the results depend on the processing

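The direction of the named miR-29 and miR-430 right arms held under every alternative tried, and over all alternatives 1655 of 1809 values of named probes kept their direction and their side of the threshold, 87 lost the call, 21 gained it, 33 turned and 13 that were not called changed sign. Without normalization between arrays 100 probes were called on the same slide (12% of them higher) and 17 with all arrays (70.6% higher), against 360 and 197. A fold change above 2 left 195 on the same slide, and an adjusted p below 0.01 left 129 with all arrays. With all arrays, slide as a fixed block gave 320 and as a random block 322 (correlation within slides 0.92). The share of higher calls was 50.8% on the same slide and 35.3% at the 75th percentile. With all arrays it was 48.7%, 31.8% at the 75th percentile, 29.6% centered on the median and 38.1% with known and predicted probes normalized together, and in the green channel 51.1% and 33.4% at the 75th percentile. The 3 dpf arrays of the zic:HRAS larvae gave 395 and those of the second slide, chosen after seeing the data, 344. Leaving out 1 array gave 332 to 366 calls on the same slide, 133 to 221 with all arrays, 334 to 352 in the green channel and 65 to 108 hairpins, and no one array moved a count by over 1.5 times. The replicate number as a block gave 336, 150, 334 and 74 calls. The values that turned are given here, and the cause was not tested. Scaled to the 75th percentile, miR-126 left was -0.14 and miR-22a-1 left -0.59. The latter was -0.22 centered on the median and -0.028 with known and predicted probes. Without normalization miR-126 left was -0.45, miR-22a-1 left -0.90, miR-107 left -0.25, miR-124-1 right -0.094 and miR-183 left -0.028. Against the zic:HRAS controls the left arms were -0.10 for miR-126, -1.10 for miR-140, -0.44 for miR-34, 0.53 for miR-222, 1.201 for miR-148, -0.29 for miR-22a-1, -0.17 for miR-107, 1.14 for miR-219-1, 0.13 for miR-10a, 0.57 for miR-18c and -1.16 for miR-183, and the right arms 0.38 for miR-96, 1.23 for miR-30c, 2.41 for miR-144 and -0.41 for miR-150. Against the second slide the left arms were -0.59 for miR-140, -0.16 for miR-26b, -0.042 for miR-22a-1, 0.80 for miR-9-1, 0.63 for miR-219-1 and 3.15 for miR-430b-1, and the right arms -0.14 for miR-124-1, 2.47 for miR-144 and -0.68 for miR-128-1. Probes above background on no array of 1 age have only a lower bound of their fold.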
